A study of Mus musculus with 4 samples.

Results

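Genes of plasma-type secreted proteins were compared between mouse brown adipocytes expressing vector and those expressing Blnc1, a long noncoding RNA (brown fat lncRNA 1). Brown adipocytes burn fuel to make heat. The gene set comprised serpins, complement components, coagulation and fibrinolysis factors, apolipoproteins and transport proteins of plasma. Genes were taken by a pattern in their symbol, with no use of measured values, and each was read by its brightest probe set, averaged over all arrays. The pattern found 48 of the 10926 genes that had a probe set named with exactly 1 gene symbol. It matches names and not functions, so it also took in the mitochondrial proteins C1qbp, Apoo and Apool and the collagen chaperone Serpinh1. Genes of these families without such a probe set were not analysed here.

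Both groups were of wild type genotype and were differentiated for 6 days from preadipocytes that already expressed vector or Blnc1. The source of the preadipocytes, the kind of vector and whether replicates came from separate transductions are not given in the sources used here, so p-values measure only the spread between these arrays. Each group had 2 arrays, replicate 1 and replicate 2, hybridised with labelled RNA from 250 ng of total RNA. Values are log2 expression per probe set, and their precision is limited by there being 4 arrays. The cells read as adipocytes: 10 of 11 listed adipocyte markers were measured. Averaged over all arrays, 9 of them lay above the median of all tested values, 6.00. For Ucp1 this held through the Blnc1 arrays alone, with means of 5.01 in vector and 8.01 in Blnc1 cells. Ucp1 and Cidea, brown fat markers, were 2.997 and 3.12 log2 units higher with Blnc1, which is larger than any difference described below. All 18 hybridization control probe sets, which read RNA spiked in at the hybridisation, were lower in the Blnc1 arrays, with a median difference of -0.27. For Gapdh and Actb the excess of the 3' over the 5' control, a sign of RNA quality, was smaller there (Blnc1 minus vector -0.13 and -0.17). These shifts separated the same arrays as every difference given here, and their part in the results was not tested.

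Most proteins of this kind enter plasma from the liver, and fat cells are also a source of some of them, haptoglobin and several complement proteins among them. Serpins are protease inhibitors that present a flexible loop as bait and trap the protease that cuts it. The complement and coagulation cascades are chains of secreted proteases that cut and activate each other, and serpins hold both in check. Apolipoproteins cover the surface of lipoprotein particles and steer the delivery of their triglyceride to tissues such as brown fat, where lipoprotein lipase releases the fatty acids.

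Of the 48 genes 1 rose and none fell in Blnc1 cells (limma, Benjamini-Hochberg adjustment over all 23599 probe sets, adjusted p threshold 0.05), against 1.23% of all genes called in either direction. In RNA of whole cultures, fewer cells of a type and less RNA per cell cannot be told apart. By direction the background was 0.86% of genes called higher and 0.366% called lower. At an unadjusted p under 0.05 there were 5 genes higher and 8 lower, 27.1% of the 48 against 20.7% of all genes. Signs were evenly split, 25 positive and 23 negative, and 51.6% of all genes were positive. The median log2 fold change was 0.012, beside 0.0073 for all genes, and the median size of the difference was 0.16, beside 0.11. The groups did not overlap for 26 of the 48 genes, against 53.2% of all genes. These were 13 genes higher and 13 lower, against 28.3% and 24.9% of all genes. Counts of calls, signs and groups apart thus lay near those of all genes. The median size and the share at an unadjusted p under 0.05 (limma) were higher. The comparison was not matched for level, and 22 of the 48 genes lay below the 25th percentile of all probe sets.

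The 95% intervals of the differences reached a median of 0.23 log2 units to either side, from 0.18 to 0.39. For 41 of the 48 genes the interval lay inside a 1.5-fold change in either direction. The smallest difference among all called genes was 0.54, and all but C1qtnf4 and Serpinb9 in this set had smaller ones. For 30 of the 48 genes the larger of the replicate differences exceeded the difference between the groups (62.5%, against 58.4% of all genes). A prior variance that follows the signal level called 8 of the 48 genes against 11.3% of all genes; they were C1qtnf4, Apoo and Apool, higher, and Apod, Pros1, Serpinb9, Serpinf1 and Serpinh1, lower. At an adjusted p of 0.10 C1qtnf4, Serpinb9 and Pros1 passed (3 of 48, against 4.99% of all genes). With only probe sets at or above the median level tested, Apool, F3 and Serpinf1 passed (3 of 17, against 9.39%). With the replicate number as a block, or without any 1 of the 4 arrays, none of the 48 passed.

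**Figure D1:**
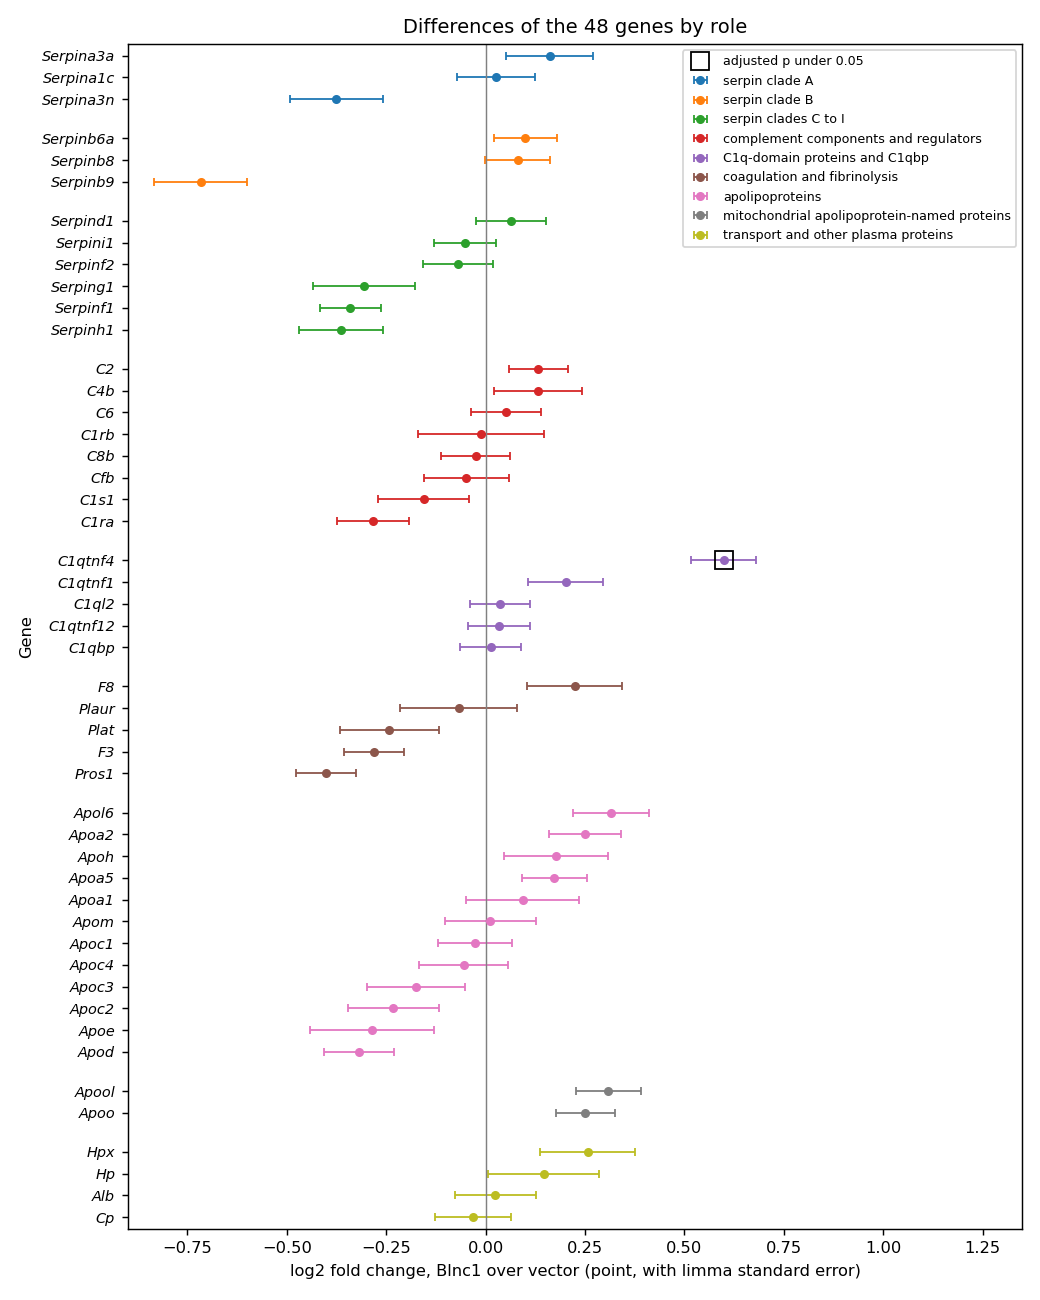
Log2 fold change of Blnc1 over vector (x axis) for each of the 48 genes (y axis), grouped and coloured by role. Bars are limma standard errors, and the square marks C1qtnf4 at 0.60, the gene that passed an adjusted p of 0.05; Serpinb9, at -0.72, lay farthest to the left.

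The gene that rose was C1qtnf4, which encodes a secreted protein of the C1q and tumour necrosis factor-related family. Its probe set read 3.76 and 3.88 in the vector arrays and 4.42 and 4.42 in the Blnc1 arrays. Both Blnc1 arrays were above both vector arrays, and the replicate arrays differed by 0.12 and 0.0034. The group means were 3.82 ± 0.082 and 4.42 ± 0.0024 (SD, n = 2 each). The rise of 0.60 ± 0.082 (SE) log2 units, or 1.51-fold, passed at an adjusted p of 0.046 (limma). Its level lay below 4.77, the 25th percentile of all probe sets, where values lie near the array's floor and fold changes are compressed. After repeated quantile normalization the adjusted p was 0.056, with a replicate block 0.093, and without 1 array 0.11 to 0.17 (limma).

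The other 4 genes of the C1q-named class had positive values, and none passed the test. C1qtnf1, a related secreted protein, read 4.48 and 4.66 in vector and 4.81 and 4.74 in Blnc1 cells, a difference of 0.20 ± 0.094 (SE, limma adjusted p = 0.32). C1qtnf12, the insulin-sensitising adipokine adipolin, read 9.53 and 9.53 in vector and 9.60 and 9.53 in Blnc1 cells. Its difference was 0.034, with a 95% interval from -0.16 to 0.22. Of its 3 further probe sets 2 stood at 0.049 and 0.045 and the dimmest at -0.091. C1qbp, a matrix protein of mitochondria that is not a complement component, stood at 0.013 (95% interval -0.17 to 0.20), a value that turned to -0.0033 after median centring. That probe set is of a type prone to cross-hybridisation. Its further probe set stood at 0.13 ± 0.080 (SE, limma adjusted p = 0.46), and there the groups did not overlap. C1ql2, named for its C1q-like domain, stood at 0.036.

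Serpinb9, an intracellular inhibitor of the cytotoxic protease granzyme B, had the largest difference of the set and lay just outside the threshold. It read 4.53 and 4.84 in the vector arrays and 3.99 and 3.96 in the Blnc1 arrays. Every Blnc1 value was below every vector value, while the vector replicates differed by 0.31. The log2 fold change was -0.72 ± 0.12 (SE, limma adjusted p = 0.062), with a 95% interval from -1.002 to -0.43. After median centring the adjusted p was 0.049 (limma), at a log2 fold change of -0.73. The vector mean of 4.69 lay below that 25th percentile, and the gene stands in a cluster of related Serpinb9 copies. The 2 other clade B serpins, whose proteins also stay inside the cell, differed little. Serpinb6a stood at 0.10 ± 0.079 and Serpinb8 at 0.081 ± 0.081 (SE).

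The promoter window of Serpinb9 is shown because it was the only one of the 5 lower genes named by the level-dependent prior that held the interferon-stimulated response element searched, GAAA repeated after a gap of 2 bases on either strand. The window runs from 250 bases before to 50 after the annotated start (RefSeq, GRCm38.p6, chr13:33004291-33004590, plus strand), and the capitals mark the match, which begins 46 bases before the start.
Serpinb9: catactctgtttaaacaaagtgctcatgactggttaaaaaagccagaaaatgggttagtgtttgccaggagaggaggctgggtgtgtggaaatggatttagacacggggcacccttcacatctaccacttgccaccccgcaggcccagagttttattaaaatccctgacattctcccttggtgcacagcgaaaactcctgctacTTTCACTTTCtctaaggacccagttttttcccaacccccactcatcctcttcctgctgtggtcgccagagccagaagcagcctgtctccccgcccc
The 36 genes found in the RefSeq table had 44 windows, and 3 of these held this motif, against 3.44% of all 32851 windows. The other two belonged to Serpina3a and Serpinb6a, whose values were positive, at 0.16 and 0.10. The value of Serpina3a was 0.027 without Blnc1 replicate 1. None of the 44 held the binding motif of EBF factors, TCCC and GGGA with 2 bases between them. EBF2 is a known partner of Blnc1, and 0.904% of all windows held the motif. The C/EBP motif TTGCNNAA occurred in 8 of the 44 windows and in 10.8% of all windows, and the nuclear receptor half-site AGGTCA in 11 of the 44 and 16.3% of all windows. Both strands were searched, and a match describes letters only.

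Among the serpins of clades A and C to I, most of which are secreted, the largest differences were negative, and none passed the test. Serpinf1 encodes pigment epithelium-derived factor, a secreted serpin without inhibitory activity. It read 9.38 and 9.40 in vector and 9.08 and 9.02 in Blnc1 cells, so the groups were apart by more than their replicates. The difference was -0.34 ± 0.077 (SE, limma adjusted p = 0.11). Its further probe set stood at -0.14 ± 0.11. Serpinh1, the endoplasmic reticulum chaperone of collagen known as HSP47, read 9.61 and 9.76 in vector and 9.22 and 9.43 in Blnc1 cells. Its difference, from a probe set of a type prone to cross-hybridisation, was -0.36 ± 0.11 (SE, limma adjusted p = 0.16). The further Serpinh1 probe set gave -0.30 ± 0.077. Both probe sets of each gene thus had negative values.

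Serping1, the C1 inhibitor that restrains the complement proteases C1r and C1s, read 5.09 and 4.75 in vector and 4.66 and 4.57 in Blnc1 cells. The vector replicates differed by 0.34, more than the group difference of -0.31 ± 0.13 (SE, limma adjusted p = 0.27). Serpina3n, a secreted inhibitor of leukocyte proteases, read 4.39 and 4.49 in vector and 3.92 and 4.21 in Blnc1 cells, a difference of -0.38 ± 0.12 (SE, limma adjusted p = 0.18). It lies in a cluster of near-identical Serpina3 copies, which a probe set may not tell apart. Serpina3a, at 0.16, and the alpha-1-antitrypsin copy Serpina1c, at 0.026, lay below the 25th percentile of probe sets, as did Serpina3n. Serpinf2, the plasmin inhibitor alpha-2-antiplasmin, stood at -0.070, the thrombin inhibitor Serpind1 at 0.063 and neuroserpin, Serpini1, at -0.052. Over the 12 serpins 7 were negative. At an unadjusted p under 0.05 there were 4, all lower (limma), against 20.7% of all genes in either direction.

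**Figure D2:**
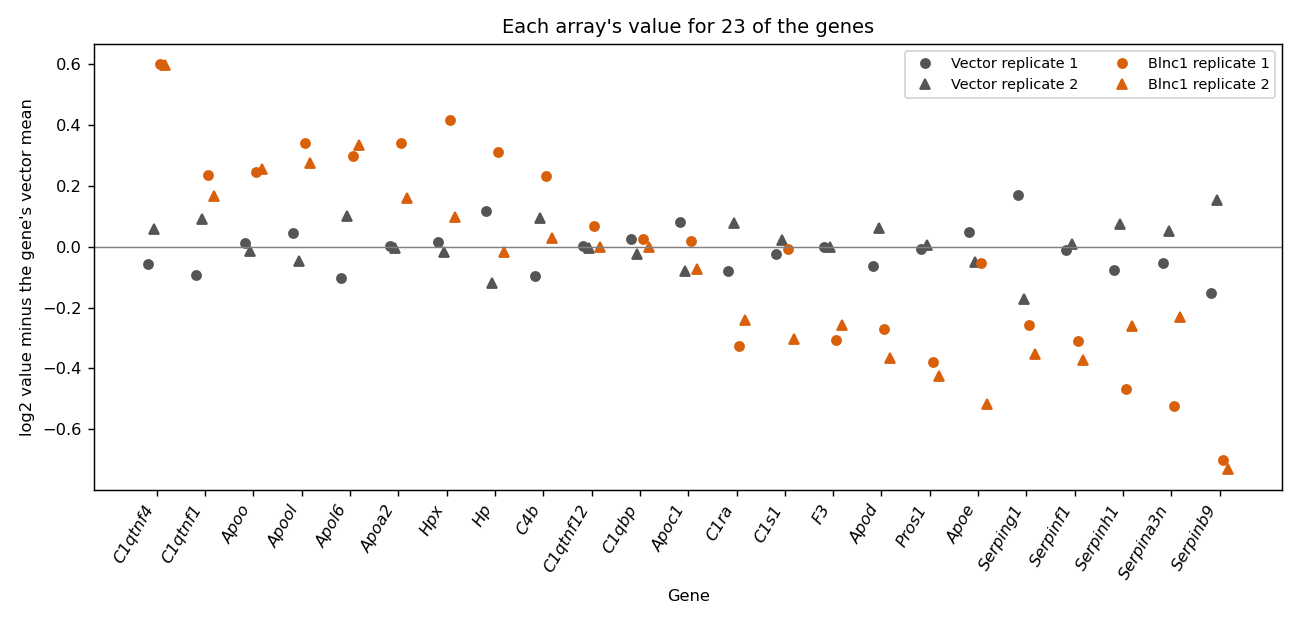
Value of each array minus the gene's vector mean (y axis, log2 units) for 23 of the genes (x axis); grey marks vector and orange marks Blnc1 arrays, circles replicate 1 and triangles replicate 2. C1qtnf4, Pros1, Serpinf1 and Serpinb9 show groups that stand apart by more than the replicates, while Apoe and Hp show replicates that differ by more than the groups.

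Of the 8 complement components measured 5 were negative and 3 positive, and none passed. At an unadjusted p under 0.05 there was 1 (limma), against 20.7% of all genes. That was C1ra, a protease of the C1 complex that starts the classical pathway, which read 4.27 and 4.43 in vector and 4.02 and 4.11 in Blnc1 cells (-0.28 ± 0.091 SE, limma adjusted p = 0.18). Its partner protease C1s1 read 6.31 and 6.36 in vector and 6.33 and 6.03 in Blnc1 cells, so 1 Blnc1 array lay within the vector range. The difference was -0.16 ± 0.11 (SE). C1rb, a copy of C1ra, stood at -0.012 ± 0.16 (SE), with replicate differences of 0.38 and 0.30. The C1rb and C1s1 probe sets are of the types prone to cross-hybridisation.

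C4b, which forms the C3-cleaving enzyme of the classical pathway together with C2, read 8.37 and 8.56 in vector and 8.70 and 8.498 in Blnc1 cells. The groups overlapped, at 0.13 ± 0.11 (SE, limma adjusted p = 0.57), and the probe set may also read the near-identical copy C4a. C2 read 4.31 and 4.31 in vector and 4.44 and 4.44 in Blnc1 cells, a difference of 0.13 ± 0.075 (SE, limma adjusted p = 0.40). Its replicates agreed to within 0.001, so its standard error comes almost wholly from the prior. Cfb, factor B of the alternative pathway, stood at -0.048 ± 0.11 (SE), and the membrane attack components C6 and C8b at 0.050 and -0.025. All of these but C4b and C1s1 lay below the median of all tested values.

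The windows of C1ra and C1rb are shown because the genes are copies that flank C1s1. A local alignment covered 150 columns with 92.7% identity, and the capitals mark a C/EBP motif in the shared stretch, 135 bases before the annotated start in C1rb and just after it in C1ra (RefSeq, GRCm38.p6, plus strand, chr6:124512371-124512670 and chr6:124570180-124570479).
C1ra: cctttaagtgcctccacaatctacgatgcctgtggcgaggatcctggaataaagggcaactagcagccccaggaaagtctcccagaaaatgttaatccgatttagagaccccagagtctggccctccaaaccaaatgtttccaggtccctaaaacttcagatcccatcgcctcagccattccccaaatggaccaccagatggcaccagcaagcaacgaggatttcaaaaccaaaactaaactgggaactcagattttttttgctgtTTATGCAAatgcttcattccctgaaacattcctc
C1rb: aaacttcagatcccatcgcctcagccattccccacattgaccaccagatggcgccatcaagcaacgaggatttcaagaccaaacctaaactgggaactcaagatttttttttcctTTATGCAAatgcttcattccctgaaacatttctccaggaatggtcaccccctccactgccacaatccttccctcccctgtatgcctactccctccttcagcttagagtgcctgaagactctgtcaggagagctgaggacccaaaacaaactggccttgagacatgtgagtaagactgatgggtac
C1s1, between them, held the same motif. Their values, -0.28, -0.16 and -0.012, were all negative, and none passed the test. Of the other genes with this motif, Hpx, Apoa2 and Alb were positive, at 0.26, 0.25 and 0.025. Cp and Plaur were negative, at -0.032 and -0.068. The value of C1rb ranged from -0.20 to 0.18 without 1 array.

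Of the 5 coagulation and fibrinolysis genes 4 were negative, and none passed. At an unadjusted p under 0.05 there were 2, both lower (limma), against 20.7% of all genes in either direction. Pros1 encodes protein S, a vitamin K-dependent anticoagulant that is also a ligand of the TAM receptor kinases. It read 6.13 and 6.14 in the vector arrays and 5.76 and 5.71 in the Blnc1 arrays. Replicates differed by at most 0.043, and the groups stood apart by -0.40 ± 0.076 (SE, limma adjusted p = 0.077; 95% interval -0.59 to -0.22). F3, tissue factor, the cell-surface trigger of coagulation, read 7.41 and 7.41 in vector and 7.10 and 7.15 in Blnc1 cells, a difference of -0.28 ± 0.076 (SE, limma adjusted p = 0.14). These were the steadiest differences of the class.

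Plat, the tissue plasminogen activator, read 5.84 and 5.52 in vector and 5.39 and 5.49 in Blnc1 cells, at -0.24 ± 0.12 (SE, limma adjusted p = 0.36), or -0.078 without vector replicate 1. The urokinase receptor Plaur stood at -0.068 ± 0.15 (SE), with Blnc1 replicates 0.37 apart. F8, a cofactor of the coagulation cascade, stood at 0.22 ± 0.12 (SE) with overlapping groups.

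**Figure D3:**
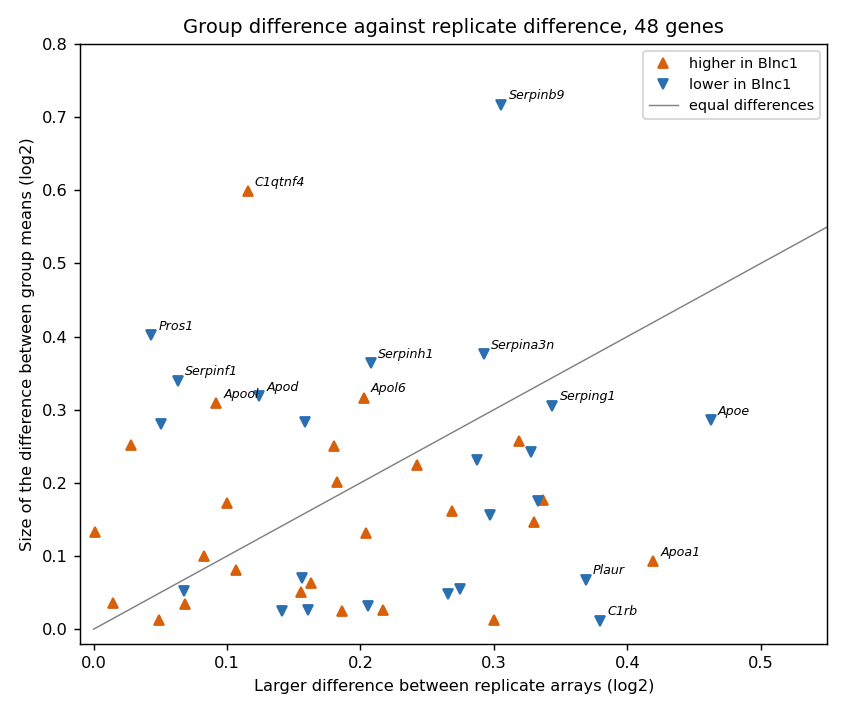
Size of the difference between group means (y axis, log2) against the larger difference between replicate arrays (x axis, log2), 1 point per gene and up or down triangles for genes higher or lower in Blnc1 cells. The line marks equal differences, and 30 of the 48 genes lie below it; Serpinb9, C1qtnf4 and Pros1 lie farthest above.

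Genes of the apolipoprotein class, most of them proteins of lipoprotein particles, were split 6 to 6, with a median of -0.0073, and none of the 12 passed. At an unadjusted p under 0.05 there were 2 higher and 1 lower (limma), against 20.7% of all genes in either direction. Apod, a lipocalin that binds small lipids, read 9.08 and 9.21 in vector and 8.87 and 8.78 in Blnc1 cells, at -0.32 ± 0.087 (SE, limma adjusted p = 0.14). Apol6, an intracellular member of the apolipoprotein L family, read 6.18 and 6.38 in vector and 6.58 and 6.61 in Blnc1 cells, at 0.32 ± 0.096 (SE, limma adjusted p = 0.17). The groups did not overlap for either gene.

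Apoe, the ligand by which remnant particles are taken up, read 8.25 and 8.15 in vector but 8.14 and 7.68 in Blnc1 cells. The Blnc1 replicates differed by 0.46, more than the group difference of -0.29 ± 0.16 (SE, limma adjusted p = 0.39). Apoc1 read 10.70 and 10.54 in vector and 10.64 and 10.54 in Blnc1 cells, a difference of -0.026 with a 95% interval from -0.25 to 0.20. Apoc3, which restrains lipoprotein lipase, read 8.495 and 8.56 in vector and 8.52 and 8.19 in Blnc1 cells, at -0.18 ± 0.12 (SE). Its lower mean rests on Blnc1 replicate 2. Apoc2, the activator of lipoprotein lipase, stood at -0.23 ± 0.12 (SE), and Apoc4 at -0.055. Apoa2, of high-density lipoprotein, stood at 0.25 ± 0.091 (SE, limma adjusted p = 0.22) and Apoa5, a promoter of triglyceride clearance, at 0.17 ± 0.082. Apoh, Apoa1 and Apom, with overlapping groups, stood at 0.18, 0.093 and 0.012. Further, dimmer probe sets of Apoa1 and Apom stood at 0.064 and -0.17.

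Several of these genes are neighbours in the reference annotation. Of 7 pairs of members with no protein-coding gene between them 5 had the same sign. The pairs share genes, 12 in all, and the share among all neighbouring genes was not computed. Apoc4, Apoc1 and Apoe follow each other and were all negative, as were C1ra, C1s1 and C1rb, and Serpinf1 and Serpinf2. Among these, Apoc1, Apoc4, C1rb and Serpinf2 could change sign when 1 array was left out. Apoa1 and its neighbour Apoc3 had opposite signs, as had Cfb and C2. The Blnc1 means of Apoa1 (4.43) and Cfb (4.39) lay between their vector values, so these signs also rest on 1 array.

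The pair of genes whose products carry apolipoprotein names but sit in the inner mitochondrial membrane, as subunits of the cristae-shaping MICOS complex, had positive values. Apoo read 10.24 and 10.21 in vector and 10.47 and 10.49 in Blnc1 cells, and Apool 8.09 and 8.001 in vector and 8.39 and 8.32 in Blnc1 cells. Replicates of both genes differed by less than 0.1 and the groups did not overlap. The differences were 0.25 ± 0.075 for Apoo and 0.31 ± 0.082 for Apool (SE, limma adjusted p 0.17 and 0.13), and neither passed. The further probe set of Apool stood at 0.27. A list of MICOS genes and of the outer-membrane partners Samm50 and Dnajc11 gave 7 other genes measured. Their median was 0.047, and 6 were positive, all but Samm50 at -0.0099. None passed, and 1 had an unadjusted p under 0.05 (limma), against 20.7% of all genes. Micos13 stood at 0.23 ± 0.079 and Chchd3 at 0.14 ± 0.075 (SE), and Immt, the scaffold of the complex, at 0.047.

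Transport proteins of plasma gave no call, and none had an unadjusted p under 0.05 (limma, 4 genes). Hp, haptoglobin, which binds free haemoglobin, read 10.94 and 10.70 in vector and 11.13 and 10.80 in Blnc1 cells. The groups overlapped, and the difference of 0.15 had a 95% interval from -0.20 to 0.49. Hpx, hemopexin, the plasma carrier of haem, read 5.63 and 5.60 in vector and 6.03 and 5.71 in Blnc1 cells, at 0.26 ± 0.12 (SE, limma adjusted p = 0.32). Cp, the copper ferroxidase ceruloplasmin, stood at -0.032 ± 0.096 (SE), with a further, dimmer probe set at 0.21. Alb, albumin, read 3.62 and 3.81 in vector and 3.66 and 3.82 in Blnc1 cells, near the floor of the arrays in both.

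Genes that act with these proteins, from lists chosen by function, included some that changed. Of 17 further coagulation and fibrinolysis genes 2 rose and 2 fell (limma, against 1.23% of all genes), with a median of 0.042. Kng1, the kininogen precursor, rose by 1.57 ± 0.11 (SE, limma adjusted p = 0.015). F5, the cofactor that protein S helps to inactivate, rose from 3.49 ± 0.066 to 4.33 ± 0.17 (SD, n = 2 each), by 0.84 ± 0.11 (SE, limma adjusted p = 0.040). Gas6, the relative of Pros1 and fellow ligand of the TAM receptors, read 8.53 and 8.66 in vector and 7.91 and 7.87 in Blnc1 cells and fell by 0.71 (SE 0.084, limma adjusted p = 0.038). Thbd, thrombomodulin, which turns thrombin toward protein C activation, read 4.41 and 4.45 in vector and 3.83 and 3.59 in Blnc1 cells and fell by 0.72 (SE 0.10, limma adjusted p = 0.049). F5 and Thbd lay below the 25th percentile of probe sets, and F5, Gas6 and Thbd did not pass with a replicate block or without any 1 array; Kng1 did not pass without either Blnc1 array.

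**Figure D4:**
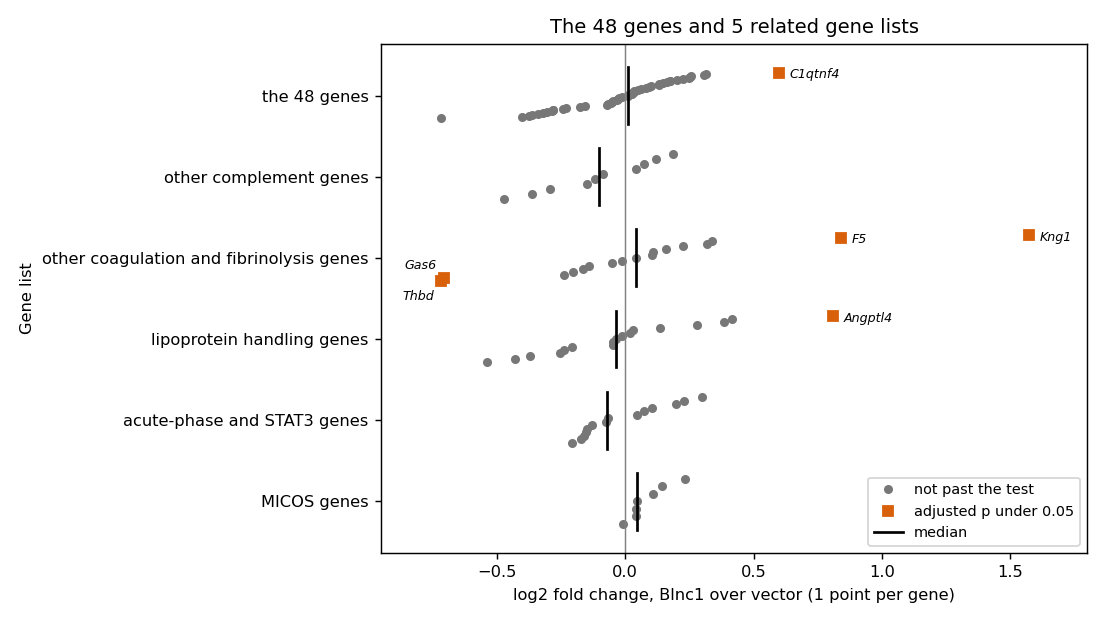
Log2 fold change of Blnc1 over vector (x axis) for the 48 genes and for 5 lists of related genes that hold none of them (y axis), 1 point per gene; the vertical bar is the median of each list. Orange squares mark genes past an adjusted p of 0.05, which are C1qtnf4 among the 48 and Kng1, F5, Gas6, Thbd and Angptl4 among the others.

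Of 17 genes of lipoprotein handling 1 rose and none fell (against 1.23% of all genes), with a median of -0.037. At an unadjusted p under 0.05 there were 3 higher and 5 lower (limma), against 20.7% of all genes in either direction. Angptl4, a secreted inhibitor of lipoprotein lipase, read 8.43 and 8.24 in vector and 9.14 and 9.15 in Blnc1 cells and rose by 0.81 ± 0.092 (SE, limma adjusted p = 0.035), though not with a replicate block (0.082) or without any 1 array (0.064 to 0.16). Lipg, endothelial lipase, stood at -0.54 ± 0.081 (SE, limma adjusted p = 0.055). Lpl itself read 12.88 and 12.83 in vector and 12.86 and 12.75 in Blnc1 cells. None of 10 further complement genes passed, and their median was -0.10. With an unadjusted p under 0.05, 3 were lower and none higher (limma), against 20.7% of all genes in either direction. The scavenger receptor Colec12 stood at -0.47 ± 0.085 and clusterin, Clu, at -0.36 ± 0.10 (SE).

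Acute-phase and STAT3 genes, which share inducers with haptoglobin and hemopexin in liver, had a median of -0.073 over 14 genes. None passed, and 2 were higher at an unadjusted p under 0.05 (limma), against 20.7% of all genes in either direction. They were the transcription factor Cebpb at 0.30 ± 0.076 and the metallothionein Mt1 at 0.23 ± 0.076 (SE). Markers of other cells that make plasma proteins were dim where they were measured. A value was available for 2 of 16 listed hepatocyte symbols, 4 of 14 macrophage, 4 of 9 endothelial and 1 of 8 megakaryocyte symbols. The 2 hepatocyte markers measured, Hnf4a and Foxa2, the 4 macrophage, the 4 endothelial and the 1 megakaryocyte marker all lay below the median of all tested values. Their summed levels were 5.66 to 5.67 in vector and 5.71 to 5.79 in Blnc1 arrays for hepatocyte markers, and 6.23 to 6.41 and 6.29 to 6.37 for macrophage markers. Endothelial markers summed to 6.96 to 7.08 in vector and 6.90 to 7.05 in Blnc1 arrays, and the megakaryocyte marker Itga2b read 4.66 to 4.78 and 4.55 to 4.69. No marker of these 4 lists passed, and only the endothelial Erg, at -0.21 ± 0.075 (SE), had an unadjusted p under 0.05 (limma). Their part in the results was not tested.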

How the data were processed

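The deposited table holds 1 log2 value per probe set and array for 23634 probe sets. Per the submitters' processing notes the authors used affy, limma and RMA; versions and settings are not given in the sources used here. That the scale is log2 was read from the values, 2.70 to 13.29. Array medians were 5.98 to 6.04. GEO's platform annotation gave 1 symbol to 16692 of the 23599 tested probe sets, several to 372 and none to 6535; 35 control probe sets were left out. All 48 genes matched the reference gene table (GRCm38.p6) by Entrez ID. They had 60 probe sets; of the 12 further ones 9 had the sign of the one used and none passed.

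Groups and replicate numbers are those of the sample titles. The 2 groups of 2 arrays were compared with limma 3.58.1 in R 4.3.3 (linear model of group alone, empirical Bayes variances with 3.95 prior degrees of freedom, two-sided), without a filter on level. P-values were adjusted over all tested probe sets (Benjamini-Hochberg, threshold 0.05). The 95% intervals are from this fit; its calls were tested on simulated data, its intervals were not. Gene lists are described by counts and medians, with no set test. Named genes were those past the threshold and, in each role class, the 4 with the smallest p and the 3 with the highest level; for related lists, those past the threshold and the 2 with the smallest p. Plaur was named by rule for its place in plasminogen activation. The other 11 of the 48 genes, and Immt and Lpl, fall outside the rule and were named after their values were seen. The gene set and lists were chosen with earlier results of these data known. Alternatives were other priors, normalizations, level filters, probe set choices, a threshold of 0.10, a replicate block and leaving out each array.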

Additional observations from a re-analysis of the deposited data

How the results depend on the processing

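The 219 probe sets past the threshold became 2174 with a level-dependent prior, 334 and 1021 after leaving out levels below the 25th and 50th percentile, 467 genes with probe sets averaged, 958 at an adjusted p of 0.10, 30 with a replicate block and 3 to 38 without 1 array. The number of the 48 genes called higher (1) was 3 with the level-dependent prior, and 0 with repeated quantile normalization and with the replicate block. It was also 0 without levels below the 25th percentile, a filter that left C1qtnf4 itself untested. The number called lower (0) was 5 with the level-dependent prior, 1 after median centring, and 2 each without levels below the 50th percentile, with averaged probe sets and at 0.10. Related genes called (5) numbered 15 with the level-dependent prior, 8 with averaged probe sets, 9 at 0.10 and 1 with the block. They numbered 3 without levels below the 25th percentile, a filter that left F5 and Thbd untested. Deviations of same-numbered arrays correlated at 0.089 over probe sets. With only 2 pairs this cannot decide whether the replicate numbers mark a pairing. Without 1 array a group has 1 sample, which is assumed to vary like the other group.

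Only other normalizations, other probe set choices and leaving out an array could change a log2 fold change here. Of the 37 genes of the set named by rule, 27 kept their sign under those of these that gave them a value. Without 1 array 14 of the 27 stayed within 1.5 times their value, C1qtnf4, Serpinb9, Pros1, Serpinf1, Serpinh1, Apod, F3, Apoo and Apool among them. The other 13 moved more, such as Plat (-0.41 to -0.078), Serping1 (-0.48 to -0.13), Serpina3n (-0.52 to -0.23), Hpx (0.098 to 0.42), F8 (0.10 to 0.35), Serpina3a (0.027 to 0.30), Apoc3 (-0.34 to -0.0093), C1s1 (-0.30 to -0.0077) and C4b (0.030 to 0.23). The remaining 10 changed sign. C1qbp turned to -0.0033 after median centring and Cp to 0.087 with averaged probe sets. Without 1 array the log2 fold change ranged from -0.069 to 0.12 for Alb, -0.11 to 0.054 for Apoc1, -0.012 to 0.037 for C1qbp, -2.8e-04 to 0.068 for C1qtnf12, -0.20 to 0.18 for C1rb, -0.13 to 0.071 for Cp, -0.018 to 0.31 for Hp, -0.083 to 0.13 for Serpina1c, -0.15 to 0.0082 for Serpinf2 and -0.25 to 0.12 for Plaur, and for the markers from -0.52 to 0.060 for Mpeg1 and -0.018 to 0.33 for Cd14. The causes were not tested. Values near the arrays' floor, where 22 of the 48 genes lay, limit what differences could be seen.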
